A study of Drosophila melanogaster with 18 samples.

Results

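The wildtype versions of 12 embryonic enhancers were followed across a reporter library that also held their motif mutants. An enhancer was counted as wildtype where the name of its construct ended in -WT, which gave 40 reporter tags of 12 constructs, out of 312 tags of 93 constructs in all. A further 252 tags belonged to 76 mutant versions of the same enhancers, and 20 tags belonged to 5 control constructs of Act57B and β3Tub60D. In quantitative enhancer-FACS-seq (QeFS), each enhancer stands upstream of a reporter gene, and a short degenerate tag in the reporter transcript identifies it in RNA and in DNA. Dividing RNA by DNA then gives enhancer activity per integrated copy.

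Cells were sorted in 9 collections, 3 of them twi:CD2+ and 6 mef2:CD2-, and each collection gave 1 RNA and 1 DNA library. For twi:CD2+ collections, males that carried the reporter pool were crossed to twi:CD2 females, and CD2-positive cells, in which the twist promoter drives the CD2 surface marker through the mesoderm, were sorted. For mef2:CD2- collections the females were mef2[IE-D5]:CD2, whose marker labels fusion-competent myoblasts, and the CD2-negative rest of the embryo was kept, 3 collections in each of 2 weeks. The labels give 11 h at 18° as the ageing of the embryos after collection, although the study's methods also allow a shorter time at a higher temperature, and every reporter stood at the same landing site. The libraries counted reporter tags only, so no marker gene of either cell type could be read, and population and time of collection cannot be told apart because the twi:CD2+ collections were all made before the mef2:CD2- ones.

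An enhancer is a stretch of DNA whose bound transcription factors raise transcription of a gene in particular cells, and enhancers active in the same tissue can differ widely in strength. The mesoderm, specified by the transcription factor Twist, gives rise to body wall muscle, heart and visceral muscle, and Mef2 is needed for the differentiation of its muscle cells. Each of the 12 enhancers carries native sites for 3 of the 4 motifs Deaf1, Schlank, ZIPIC and CG12236-PB, left intact in the wildtype versions.

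One enhancer, hth_3, bears the name of hth, which encodes the homeodomain protein Homothorax and which RefSeq places on chromosome 3R from 10507561 to 10639568 (Release 6). Its 3 tags are shown because they reported the same enhancer with different values, described below. The start of its construct is shown to make the layout plain. The capitals mark the BmtI site between the 8-base barcode that identifies the enhancer and the first bases of the enhancer itself.
hth_3 tag 1: acaaaccaccccccactacg
hth_3 tag 2: atgatgaagctacatccggc
hth_3 tag 3: cacacacctcagatagcaca
hth_3 construct start: gccttctgGCTAGCtggcatcaccatttgg
The tags had a G+C content of 60%, 50% and 50%. All other tags are called by number within their enhancer.

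Enhancer activity was computed per tag and collection. The tag's part of all unique molecular identifiers (UMIs, random bases that count molecules) in the RNA library was divided by its part of those in the DNA library, so that 1 is the average level of a library. Only observations with at least 65 DNA UMIs were used. Of the 40 wildtype tags, 34 passed in at least 1 collection, 31 passed in both populations and 21 passed in all 9 collections. The 6 that never passed had at most 7 DNA UMIs. In 11 of the 12 enhancers at least 4 observations remained in each population, with 87 observations in twi:CD2+ cells, 164 in mef2:CD2- cells, and 32 tags in either. ChIPCRM5792 had 1 observation and was not ranked. The wildtype tags made up 8.85% to 10.2% of RNA UMIs in twi:CD2+ libraries and 8.92% to 12.5% in mef2:CD2- libraries, against 10.1% to 10.9% and 9.61% to 12.9% of DNA UMIs. Total UMIs were 813922 to 1366066 per RNA library and 317396 to 621449 per DNA library in twi:CD2+ cells, and 560294 to 1201998 and 54038 to 248151 in mef2:CD2- cells. The median wildtype observation rested on 1462 DNA UMIs in twi:CD2+ cells and on 361.5 in mef2:CD2- cells.

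Strength, the mean over all observations of an enhancer, spanned more than 2 orders of magnitude. In twi:CD2+ cells the highest enhancer, ChIPCRM5432, was 216-fold above the lowest, ChIPCRM5857. The same enhancers stood at the ends of the order in mef2:CD2- cells, 241-fold apart. In each population 5 of 11 wildtype enhancers had a mean above 1. Observations of 1 collection come from the same cells and tags of 1 enhancer share its sequence, so the SDs below describe spread among observations and not among independent animals.

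ChIPCRM5432 was the strongest enhancer, at 7.90 ± 8.11 in twi:CD2+ cells (SD, n = 7 observations of 3 tags) and 6.11 ± 3.30 in mef2:CD2- cells (n = 14). Averaged over its tags in each collection, it reached 12.3, 6.32 and 2.89 in twi:CD2+ replicates 1, 2 and 3, and 3.35 to 7.95 in the 6 mef2:CD2- collections, with a median of 6.24. It ranked first in 8 of 9 collections, the exception being twi:CD2+ replicate 3, where hth_3 stood above it. Between them its tags took 3.72% to 5.24% of all RNA UMIs in twi:CD2+ libraries and 2.69% to 7.51% in mef2:CD2- libraries, against 0.575% to 1.503% and 0.617% to 2.60% of DNA UMIs. Tag 1 gave 5.56, 5.93 and 3.83 and tag 2 gave 5.39, 6.72 and 1.95 in the 3 twi:CD2+ collections. Tag 3 passed in twi:CD2+ replicate 1 only, on 72 DNA UMIs, and stood at 26.0. Without tag 3 the twi:CD2+ mean was 4.90, and without twi:CD2+ replicate 1 it was 4.61.

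Tag 2 of ChIPCRM5432 lay between 4.14 and 6.97 in mef2:CD2- replicates 1 to 5 but at 0.189 in replicate 6. The DNA UMIs behind that value had fewer reads each than usual. Reads per DNA UMI averaged 10.8 for this tag and 1.99 for tag 3 in that library, whose median tag had 90.7, and both tags of the enhancer in mef2:CD2- replicate 3 were also low, at 35.4 and 47.0 against a library median of 100.05. Of 252 wildtype observations, 5 had less than 0.5 of the library's median reads per DNA UMI, and 4 of these were tags of ChIPCRM5432. The part of this in the measured activities was not tested, but without the low observations the mef2:CD2- mean of ChIPCRM5432 was 6.88. Counted in reads, it was 27.1, since tag 3 in replicate 6 then stood at 275. A further limit applies to tag 1, which carried 33251 different UMIs in the RNA of twi:CD2+ replicate 3, 50.7% of the 65536 sequences that 8 random bases allow. Corrected for such collisions, the means of the enhancer were 7.89 in twi:CD2+ cells, against 6.38 in mef2:CD2- cells.

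Below ChIPCRM5432 came a group of 4 enhancers with means near or above 1. The enhancer hth_3 averaged 2.22 ± 2.15 in twi:CD2+ cells (n = 9 observations of 3 tags) and 1.12 ± 0.385 in mef2:CD2- cells (n = 18). Its collection means were 2.29, 1.29 and 3.08 in twi:CD2+ cells and ran from 0.712 to 1.37 in mef2:CD2- cells, with a median of 1.141, so that the populations overlapped. The tags shown above differed in twi:CD2+ cells. Tag 1 held between 1.24 and 1.68, tag 2 gave 3.82, 0.778 and 0.251, and tag 3 gave 1.49, 1.85 and 7.32, the last on 297 DNA UMIs against 3689 and 1446 in the other collections. Their means in mef2:CD2- cells were 1.26, 1.05 and 1.03.

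ChIPCRM2613 averaged 1.52 ± 1.19 in twi:CD2+ cells (n = 8) and 1.27 ± 0.527 in mef2:CD2- cells (n = 20 observations of 4 tags). Its twi:CD2+ collections, at 2.57, 1.65 and 0.690, spread more widely than those of ChIPCRM2497, at 1.64, 1.144 and 1.36. ChIPCRM2497 had the least spread among single observations on the log2 scale, with an SD of 0.31 in each population. It averaged 1.38 ± 0.301 in twi:CD2+ cells (n = 6) and 1.30 ± 0.323 in mef2:CD2- cells (n = 12), and its 12 mef2:CD2- observations all lay between 1.04 and 2.18. CBP2862 averaged 1.01 ± 0.564 in twi:CD2+ cells (n = 4) and 1.03 ± 0.806 in mef2:CD2- cells (n = 5). Its tags and weeks coincided there. Tag 2 passed only in week 1, at 0.511 and 0.640, and tag 3 only in week 2, at 2.44, 0.981 and 0.590. Without replicate 4, which gave the 2.44, the mef2:CD2- mean was 0.681.

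A pair of enhancers with means between 0.2 and 0.6 followed. CG7759_33 averaged 0.379 ± 0.420 in twi:CD2+ cells (n = 12 observations of 4 tags) and 0.562 ± 0.224 in mef2:CD2- cells (n = 24). Its twi:CD2+ collections stood at 0.278, 0.262 and 0.596 and its mef2:CD2- collections between 0.391 and 0.815, with a median of 0.538. The high twi:CD2+ collection came from tag 2, at 1.69 in replicate 3 against 0.271 and 0.446 in the others, and without that tag the twi:CD2+ mean was 0.238. ChIPCRM5405 averaged 0.516 ± 0.490 in twi:CD2+ cells (n = 8) and 0.271 ± 0.134 in mef2:CD2- cells (n = 14). Here tag 1 stood at 0.921 and 1.52 in twi:CD2+ replicates 2 and 3, on 143 and 81 DNA UMIs, whereas tag 2 lay at 0.120, 0.201 and 0.161 on at least 1804 DNA UMIs. Without tag 1 the twi:CD2+ mean was 0.281.

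The 4 weakest enhancers were ChIPCRM3407, ChIPCRM2847, ChIPCRM2000 and ChIPCRM5857. ChIPCRM3407 averaged 0.282 ± 0.136 in twi:CD2+ cells (n = 8) and 0.195 ± 0.152 in mef2:CD2- cells (n = 17). Its tag 1 ran from 0.347 to 0.503 in twi:CD2+ cells, but in mef2:CD2- cells it stood at 0.0051 and 0.0046 in replicates 4 and 5, on 547 and 690 DNA UMIs, and at 0.590 in replicate 6. Tag 3 lay at 0.226, 0.145 and 0.509 in the same 3 collections. ChIPCRM2847 averaged 0.221 ± 0.165 in twi:CD2+ cells (n = 9) and 0.206 ± 0.0915 in mef2:CD2- cells (n = 11), a ratio of 1.07.

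ChIPCRM2000 averaged 0.128 ± 0.147 in twi:CD2+ cells (n = 7) and 0.267 ± 0.266 in mef2:CD2- cells (n = 11). Its mean depended on single collections. The twi:CD2+ mean was 0.0713 without replicate 3, where tag 1 stood at 0.446 on 179 DNA UMIs and tag 4 at 0.0919. That observation of tag 1 had 0.491 of the library's median reads per DNA UMI, and without it the twi:CD2+ mean was 0.0748. The mef2:CD2- mean was 0.166 without replicate 4, where the tags stood at 0.480 and 0.958. ChIPCRM5857 lay below all others at 0.0366 ± 0.0282 in twi:CD2+ cells (n = 9) and 0.0253 ± 0.0130 in mef2:CD2- cells (n = 18). Its highest mef2:CD2- observation, 0.0488, was lower than 15 of the 17 observations there of the enhancer next above it, ChIPCRM3407. For scale, the control Act57B_Mef2_WT, an enhancer of a muscle actin gene, averaged 6.23 ± 2.58 in twi:CD2+ cells (n = 10) and 5.11 ± 2.45 in mef2:CD2- cells (n = 20), and BTub60D_WT averaged 0.706 ± 0.488 (n = 12) and 0.697 ± 0.398 (n = 21).

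The order of strength was much the same in both populations. Across the 11 enhancers, log2 strength in twi:CD2+ cells and mef2:CD2- cells correlated with a Spearman's rho of 0.92 and a Pearson's r of 0.96, and r was 0.89 over 9 enhancers without ChIPCRM5857 and ChIPCRM5432. The points share their tags and their place in the pool. ChIPCRM5432, ChIPCRM2613, CBP2862, ChIPCRM2847 and ChIPCRM5857 held the same rank in both, hth_3 ranked 2 in twi:CD2+ cells, against 4 in mef2:CD2- cells, ChIPCRM2497 ranked 4 and 2, and ChIPCRM2000 ranked 10 and 8. Of 55 pairs of enhancers, 42 stood in the same order in all 3 twi:CD2+ collections and 41 in all 6 mef2:CD2- collections.

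Neighbours in this order were separated in few places. Each pair of neighbours was compared by a two-sided exact sign-flip permutation test of the log2 ratio of their means per collection, adjusted over the 10 pairs of a population. Of the mef2:CD2- pairs, 3 kept their order in 6 of 6 collections. ChIPCRM5432 stood above ChIPCRM2497 by 2.16 ± 0.48 on the log2 scale (mean ± SD), CG7759_33 above ChIPCRM5405 by 1.25 ± 0.38, and ChIPCRM3407 above ChIPCRM5857 by 2.79 ± 0.77. In these pairs the means of the tags did not overlap either. Each had a permutation p of 0.0312, the smallest that 6 collections allow, and an adjusted permutation p of 0.104, so that 0 of 10 pairs passed 0.05 after adjustment and 3 had an unadjusted p under it. The other 7 pairs in mef2:CD2- cells differed by less than their spread, with mean log2 ratios of -0.18 to 0.61. ChIPCRM2000 owed its place above ChIPCRM2847 to 1 collection and stood below it in the other 5.

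In twi:CD2+ cells the smallest p that 3 collections allow is 0.25 by permutation, and 0 of 10 pairs could pass. ChIPCRM2497 lay above CBP2862 and ChIPCRM2000 above ChIPCRM5857 in 3 of 3 collections, by 0.61 ± 0.58 and 1.59 ± 1.26 on the log2 scale. The first and second enhancers, ChIPCRM5432 and hth_3, differed by 1.54 ± 1.42 and were in that order in 2 of 3 collections.

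Tags of 1 enhancer spread less than the enhancers did. In twi:CD2+ cells the highest tag mean of an enhancer exceeded its lowest by 1.02-fold in ChIPCRM2497 to 7.57-fold in ChIPCRM5405, with a median of 2.40-fold. In mef2:CD2- cells the range was 1.22-fold in hth_3 to 2.33-fold in ChIPCRM2847, with a median of 1.66-fold. More than 2-fold lay between the tags of 7 of 11 enhancers in twi:CD2+ cells, against those of 2 of 11 in mef2:CD2- cells, where more collections enter each mean, at lower DNA depth. Divided into parts, the sum of squares of log2 activity lay to 80.3% between enhancers, 6.90% between tags of an enhancer and 12.8% between collections of a tag in twi:CD2+ cells. The same parts were 82.1%, 3.29% and 14.6% in mef2:CD2- cells. Scatter between collections also enters the part between tags. The mean square between tags was 1.41 times that within a tag in each population. For mutant versions the first part lay between constructs, 70 of them in twi:CD2+ cells, against 75 in mef2:CD2- cells. It joins differences between enhancers with those between mutants of 1 enhancer, so it is not the same quantity as the wildtype part. The mutant parts between constructs, between tags and within a tag were 83.5%, 6.66% and 9.85% for twi:CD2+, against 84.1%, 5.35% and 10.5% for mef2:CD2-.

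A single tag varied between collections. The SD within a tag was 1.04 on the log2 scale in twi:CD2+ cells, against 0.98 in mef2:CD2- cells, and the root mean square counting error of an observation was 0.111 and 0.126. This variation was set against counting alone and not split between sorting, library preparation and biology. Deviations of wildtype observations from their tag were of similar size at every depth, with an SD of 0.97 at 1000 or more DNA UMIs, 0.98 from 200 to under 1000 and 1.07 under 200. An observation lay more than 2-fold from the mean of its tag (scaled for the number of observations of the tag) in 21.8% of 78 cases with at least 1000 DNA UMIs, in 21.0% of 124 cases from 200 to under 1000 and in 21.7% of 46 cases under 200. In the mutant versions the shares were 10.8%, 17.7% and 31.1%. Within a tag, the RNA share changed with the DNA share by a slope of 0.44 on log2 scales over 248 wildtype observations of 32 tags, against 0.58 over 1622 mutant observations, where 1 would be proportional.

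Strength and tag spread had no steady relation. Spread was measured as the SD of an enhancer's tag means on the log2 scale. Across 11 enhancers in twi:CD2+ cells, Spearman's rho between log2 strength and spread was 0.22 and Pearson's r 0.33, and over 9 enhancers without ChIPCRM5432 and ChIPCRM5857 rho was -0.067 and r -0.13. In mef2:CD2- cells rho was -0.47 and r -0.12, and over the same 9 rho was -0.80 and r -0.60. The rho of -0.47 became -0.70 over the same 11 enhancers without the observations of few reads per DNA UMI. With a minimum of 200 DNA UMIs it became 0.030, over 10 enhancers. The widest spread in twi:CD2+ cells belonged to the strongest enhancer and to one from the middle of the order, 1.46 in both ChIPCRM5432 and ChIPCRM5405, and in mef2:CD2- cells it belonged to ChIPCRM3407, at 1.08. The narrowest were ChIPCRM2497 in twi:CD2+ cells, at 0.062, and hth_3 in mef2:CD2- cells, at 0.13. Spread in one population said little of spread in the other (rho = 0.29), and it was only weakly related to the median DNA UMIs of an enhancer, with a rho of -0.39 in twi:CD2+ cells, against -0.20 in mef2:CD2- cells. Each of these values rests on 2 to 4 tags per enhancer.

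To see whether tags kept their differences, the highest and lowest tag of each enhancer by mean log2 activity were chosen in twi:CD2+ cells, among tags with at least 2 observations there, and then compared in mef2:CD2- cells. Tag 3 of ChIPCRM5432 and tag 3 of ChIPCRM2000, with 1 observation each in twi:CD2+ cells, were not eligible. In 10 enhancers both tags could be compared, and 6 kept the direction on average. The median log2 ratio was 0.70 in twi:CD2+ cells, where the tags were chosen, and 0.26 in mef2:CD2- cells. ChIPCRM2000 kept its direction in 5 of 5 collections, with tag 4 above tag 1 by 1.00 ± 0.72 on the log2 scale (two-sided exact sign-flip permutation p = 0.0625, the smallest possible, adjusted p = 0.63). Its choice in twi:CD2+ cells was close, since tag 4 stood above tag 1 by 0.22 on the log2 scale but below it by mean activity, at 0.107 against 0.176. The largest choice in twi:CD2+ cells, tag 1 over tag 2 of ChIPCRM5405 at 2.91, measured -0.04 in mef2:CD2- cells over 2 collections. For hth_3, tag 3 over tag 2 measured 1.59 in twi:CD2+ cells, against -0.01 in mef2:CD2- cells, in the same direction in 3 of 6 collections. By this test 0 of 10 enhancers passed, and 0 had an unadjusted p under 0.05. None could have passed after adjustment, since only 5 were compared in 6 collections, where the smallest unadjusted p is 0.0312. The count therefore does not tell whether tags kept their differences. Across 31 wildtype tags the deviation from the enhancer's mean correlated between the populations with r = 0.26 and rho = 0.37, against r = 0.36 and rho = 0.21 over 187 mutant tags. Tags had no common trend with their G+C content, at r = -0.11 in twi:CD2+ cells and r = -0.07 in mef2:CD2- cells.

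The populations were compared by a count model over all constructs. Of 11 wildtype enhancers, 0 passed an adjusted p of 0.05 in edgeR's quasi-likelihood test, against 3 of 90 constructs or 3.33% in all (1.11% higher and 2.22% lower in twi:CD2+ cells). An unadjusted p under 0.05 was found for 3 of the 11 wildtype enhancers and for 20 of the 90 constructs, or 22.2%, so the wildtype count was near that of the library. The median log2 fold change, twi:CD2+ over mef2:CD2-, was -0.01 in the wildtype enhancers and -0.01 in all constructs. CG7759_33 had a log2 fold change of -0.72 in the model (95% interval -1.23 to -0.20, edgeR adjusted p = 0.104). hth_3 had 0.64 (0.15 to 1.138, edgeR adjusted p = 0.11) and ChIPCRM5857 had 0.62 (0.01 to 1.22, edgeR adjusted p = 0.214). The largest estimates, 0.94 for ChIPCRM3407 and -0.87 for ChIPCRM2000, had intervals of -0.06 to 1.94 and -2.02 to 0.29. ChIPCRM2497 was bounded most closely, at 0.14 with an interval of -0.31 to 0.59. ChIPCRM5432 (-0.03, -0.77 to 0.70), ChIPCRM2613 (-0.01, -0.66 to 0.63), ChIPCRM5405 (0.01, -0.94 to 0.95), ChIPCRM2847 (-0.22, -1.04 to 0.61) and CBP2862 (-0.27, -1.35 to 0.81) had intervals that reach well past 0 on both sides. The count for wildtype enhancers changed in 2 settings. Without mef2:CD2- replicate 4, CG7759_33 passed at -0.81 (edgeR adjusted p = 0.0322), and with only the tags that had 65 DNA UMIs in every collection, hth_3 passed at 0.83 (edgeR adjusted p = 0.0203).

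By tag, 0 of 29 wildtype tags passed in edgeR, against 5 of 233 tags or 2.15% in all (0.858% higher and 1.29% lower). An unadjusted p under 0.05 was found for 24 of the 233 tags, or 10.3%, and for 3 of the 29 wildtype tags. Among these were tags 3 and 4 of CG7759_33, at -1.28 (-2.08 to -0.49) and -1.58 (-2.70 to -0.46), and tag 3 of hth_3, at 1.33 (0.20 to 2.47). That tag of hth_3 stood at 1.49, 1.85 and 7.32 in twi:CD2+ replicates 1 to 3, against a mean of 1.03 in mef2:CD2- cells. The part of the high value in its estimate was not tested. Of the 10 enhancers with at least 2 tags tested, the tags of 1, ChIPCRM2000, had estimates of 1 sign, -1.15 and -1.27. In CG7759_33, tag 1 gave -1.05 and tag 2 gave 0.18. The tags of hth_3 gave 0.25, -0.27 and 1.33.

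Strength did not order the population differences. Across 11 enhancers the edgeR log2 fold change correlated with mean log2 strength at rho = 0.11 and r = -0.09. Its absolute size correlated at rho = -0.42 and r = -0.52, with r = -0.43 over 9 enhancers without ChIPCRM5857 and ChIPCRM5432. Against tag spread, the absolute size had a rho of -0.02 in twi:CD2+ cells, against 0.19 in mef2:CD2- cells. Over 9 enhancers rho was 0.67 in twi:CD2+ cells without ChIPCRM5405 and ChIPCRM5432. In mef2:CD2- cells it was -0.08 without ChIPCRM3407 and ChIPCRM2847, so neither value was steady. Strength and fold change come from the same counts, so these values describe the set and were given no test.

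The mef2:CD2- collections of week 2 were set against those of week 1 in the same way. The mean activity of all 11 wildtype enhancers was higher in week 2, by 1.04-fold in hth_3 to 3.11-fold in ChIPCRM2000, with a median of 1.45-fold. Such means were not compared between weeks for the mutant versions. The ratio of ChIPCRM2000 includes its high replicate 4, and that of CBP2862, 2.32-fold, sets tag 3 in week 2 against tag 2 in week 1. The count model called 0 of 11 (edgeR, against 0 of 90 or 0% in all, with 1 wildtype enhancer and 14 constructs at an unadjusted p under 0.05). Its log2 fold changes, week 2 over week 1, were above 0 in 8 of 11 and had a median of 0.35 in the wildtype enhancers and 0.18 in all constructs. Most constructs of the library were thus also higher in week 2, and the direction was not particular to the wildtype enhancers. ChIPCRM5857 had the smallest p, at 0.61 (0.11 to 1.11, edgeR adjusted p = 0.285), with collections at 0.0266, 0.0340 and 0.0347 in week 2 and 0.0182, 0.0169 and 0.0215 in week 1, which did not overlap.

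Averaged over the set, wildtype enhancers stood above the mean of their own mutants, but not all of them did. In each collection the log2 activity of a wildtype minus the mean log2 activity of its mutants was averaged over the enhancers. This was above 0 in all 9 collections. It was 0.66, 0.35 and 0.73 in twi:CD2+ cells, a mean of 0.58 ± 0.20 (SD, n = 3, two-sided exact sign-flip permutation p = 0.25, the smallest possible). In mef2:CD2- cells it was 0.22 to 0.50, a mean of 0.40 ± 0.13 (n = 6, permutation p = 0.0312, the smallest possible), which is 1.32-fold on the linear scale. The populations differed by 0.18 (two-sided exact permutation p = 0.119).

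That average joined enhancers of unlike behaviour. The mean difference of an enhancer was above 0 in 9 of 11 in twi:CD2+ cells, against 6 of 11 in mef2:CD2- cells, and its sign was the same in every collection measured for 3 of 11 (all above) and for 6 of 11 (5 above and 1 below). ChIPCRM5432 lay above the mean of its mutants in 9 of 9 collections, by 1.86 ± 1.139 in twi:CD2+ cells, against 1.76 ± 0.35 in mef2:CD2- cells. Without it the set averaged 0.45 in twi:CD2+ cells, against 0.26 in mef2:CD2- cells. ChIPCRM2847 and CBP2862 also lay above their mutants wherever they were measured, by 1.08 ± 0.29 and 1.33 ± 0.46 in twi:CD2+ cells and by 0.92 ± 0.41 and 1.16 ± 0.84 in mef2:CD2- cells. CG7759_33 lay below the mean of its mutants in 6 of 6 mef2:CD2- collections, by -0.36 ± 0.27, and in 2 of 3 twi:CD2+ collections. By mean activity it exceeded 1 of 7 mutants in mef2:CD2- cells and 1 of 6 in twi:CD2+ cells. ChIPCRM5857, the weakest enhancer, averaged below the mean of its mutants in both populations, at -0.21 ± 0.39 in twi:CD2+ cells, against -0.18 ± 0.38 in mef2:CD2- cells. ChIPCRM3407 (-0.24 ± 0.67), ChIPCRM5405 (-0.05 ± 0.66) and hth_3 (-0.05 ± 0.24) averaged below 0 in mef2:CD2- cells only, by less than their spread. hth_3 was the highest version of its series in twi:CD2+ cells, at 2.22 against 1.06 to 1.97 in its 7 mutants, but in mef2:CD2- cells it stood above 3 of 7, at 1.12 against 0.989 to 1.25. By mean activity the wildtype was the highest version in 3 of 11 series in twi:CD2+ cells, against 1 of 11 in mef2:CD2- cells, and its mean activity exceeded that of the median mutant in 9 and 8 series.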

How the data were processed

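QeFS was run on 9 collections of sorted cells, 18 libraries in all. The authors deposited 1 table per library, with counts of UMIs and of reads per tag as whole numbers without normalization. Their methods took the UMI from the first 8 bases of each read, trimmed constant regions with cutadapt (1.14 in the submitters' processing notes), and aligned the tag with Bowtie to a table of known tags, after which UMIs and reads were counted. R 3.5.1 is also named there. UMI errors and the assignment of tags are therefore part of the counts.

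Activity was computed from the deposited UMI counts as described, with a minimum of 65 DNA UMIs per observation and 4 observations per construct and population, using pandas 2.3.3, scipy 1.17.1 and numpy 2.4.6 under Python 3.11.15. Population and week differences were fitted with edgeR 4.0.16 (limma 3.58.1, R 4.3.3) on the 90 constructs that reached 10 counts in each library, or on tags with 65 DNA UMIs in at least 2 collections of each population. The model held a term for each collection, RNA, and RNA in the compared group, with TMM normalization and Benjamini-Hochberg adjustment over all constructs or tags at 0.05. DESeq2 1.42.0 was an alternative. RNA and DNA of a collection were extracted from the same cells, which pairs them, and their deviations from the population means correlated at 0.18 to 0.80 over constructs in the 9 collections. No libraries held identical values. Exact permutation tests took collections as replicates. Since the labels do not say that collections of a week came from separate cages, p-values measure the spread between these collections, which may be partly technical. The scripts were tested on simulated data. All enhancers were named, and sequences were printed only where the chromosome could be looked up. The table of construct sequences was held here in shortened form, so sequence features of the enhancers were not analysed here. The members, lists and tests were chosen with earlier results of these data known. Counting errors are Poisson and cover counting only.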

Additional observations from a re-analysis of the deposited data

Results flagged for a closer look

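In 36 sets of 4 to 6 mef2:CD2- collections (enhancer means and single tags), 7 had 1 collection far from the others by Dixon's criterion. For normally distributed values chance marks about 1 set in 20. The criterion was applied to activity itself and not to its log2, and all 7 marked values were high. The count can therefore not be read against that rate. Some of the marked sets repeat the same collection at the level of the enhancer and of its tags. ChIPCRM2000 stood at 0.719 in replicate 4, and its tag 1 at 0.480, and CBP2862 stood at 2.44 in the same replicate, on tag 3 only. ChIPCRM3407 stood at 0.427 in replicate 6, where tag 1 reached 0.590 and tag 3 reached 0.509. ChIPCRM2497 stood at 1.61 in replicate 5.

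ChIPCRM5792, which entered no ranking, gave 1 observation past the DNA minimum, at 0.987 in twi:CD2+ replicate 1. It rested on 1317 RNA and 607 DNA UMIs of tag 1.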

How the results depend on the processing

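Of 377 recomputed mean activities, 375 moved by less than 1 SD of their observations. The exceptions were ChIPCRM5432 in mef2:CD2- cells counted in reads, at 27.1, which raised the ratio of the strongest to the weakest enhancer there to 1829, and CBP2862 in twi:CD2+ cells without tag 2, at 1.79. The ratio was 118 to 262 in twi:CD2+ cells, against 222 to 276 in mef2:CD2- cells, with each collection left out. The count of separated neighbours stayed 0 in every setting run. In twi:CD2+ cells, with a mef2:CD2- collection left out or in a single week, too few collections entered for any pair to pass. In the other mef2:CD2- settings a pair could pass only if most pairs reached the smallest possible p. The rho of strength and tag spread was -0.16 to 0.28 in twi:CD2+ cells (-0.16 without replicate 1) and -0.54 to -0.03 in mef2:CD2- cells with each collection left out, against -0.70 to 0.03 there over all other alternatives. The cause was not tested.

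The mean of wildtype minus mutants kept its sign. In mef2:CD2- cells it was 0.38 to 0.42 with each collection left out, where 5 collections cannot give a permutation p under 0.0625, and 0.40 in week 2 and 0.28 in week 1, where 3 cannot give one under 0.25. Further alternatives were chosen after seeing the data, leaving out each enhancer (0.45 to 0.70 in twi:CD2+ cells, 0.26 to 0.47 in mef2:CD2- cells) and leaving out observations with few reads per DNA UMI (0.54 and 0.38).

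The count of wildtype enhancers that differed between populations was 0 to 1 with each collection left out, 1 with only the tags deep in every collection, and 0 otherwise. It was also 0 by the exact permutation test of collection means, but 3 against 6 collections allow no permutation p under 0.0238. After adjustment over 11 enhancers, any could pass only if most had a p near that value, so this 0 says little. With no replicate block for the collection that pairs RNA and DNA, 0 of 11 enhancers and 0 of 29 wildtype tags passed, and the count over all tags fell to 0, against 5 with the block. Over all constructs, DESeq2 called 6, week 2 alone 10, week 1 alone 5 and the deep tags 8, and single collections left out gave 3 to 7, against 3. Over all tags week 2 alone called 1 and week 1 alone 2. Without the filter 1 wildtype tag passed, tag 3 of ChIPCRM2613. The week comparison called 1 construct with no filter and 4 without replicate 6.

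Direction changed only in uncalled differences. Between populations ChIPCRM2613 was 0.015 with DESeq2, 0.16 with deep tags and 0.25 by collection means (-0.41 to 0.29 with each collection left out). ChIPCRM5405 was -0.42 with week 2 alone (-0.17 to 0.34), ChIPCRM5432 0.10 with deep tags and 0.067 by collection means (-0.24 to 0.24), ChIPCRM2847 0.19 with deep tags, CBP2862 0.067 by collection means and ChIPCRM2497 -0.020 with week 1 alone. CG7759_33, ChIPCRM2000, ChIPCRM3407, ChIPCRM5857 and hth_3 kept their sign in all 18 settings. Between weeks, hth_3 was 0.069 without TMM (-0.10 to 0.20), and with each collection left out ChIPCRM3407 ran from -1.01 to 0.39, ChIPCRM2497 from -0.20 to 0.089, ChIPCRM5432 from -0.26 to 0.55, CBP2862 from -0.29 to 0.77 and ChIPCRM2613 from -0.25 to 0.31. Depth bears on the counting error, whose root mean square was 0.111 in twi:CD2+ cells, against 0.126 in mef2:CD2- cells, where the DNA libraries are smaller.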
